A study of Mus musculus with 3 samples.

Results

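The oligoadenylate synthetase (OAS) family was followed in mouse ES cells with and without NUP153 depletion. The 7 genes described, Oas1a, Oas1b, Oas1g, Oas2, Oas3, Oasl1 and Oasl2, were taken by symbol from the 24421 genes of the deposited counts, and all 7 were found there. RNA-Seq was performed on the female line EL 16.7 (background F2:129S1/CastEiJx 129S1, undifferentiated). The cells were kept in LIF on γ-irradiated embryonic fibroblasts of Tg(DR4)1Jae/J mice, transduced with shRNA lentivirus and selected for 2 days in 2 μg/ml puromycin. The control library carried a scramble shRNA (genotype label wild type), and the NUP153 KD-1 and KD-2 libraries carried different NUP153-specific shRNAs (shRNA-1 and shRNA-2). Each condition has 1 library, so that every ratio compares libraries and none has a replicate check.

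OAS proteins bind double-stranded RNA, and the active ones then join ATP into short oligoadenylates. These serve as messengers of the antiviral state, and the family is best known as a group of interferon-stimulated antiviral genes. Mouse ES cells are known for a weak interferon response, whereas fibroblasts respond readily.

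Reads on genes numbered 72344726 in control, 85258834 with KD-1 and 69839336 with KD-2. Nup153 had 27870 reads in control, 16451 with KD-1 and 11126 with KD-2. After upper-quartile scaling this gives log2 ratios to control of -0.99 (95% counting interval -1.02 to -0.96) and -1.43 (-1.46 to -1.40). All 10 ES cell markers had reads in each library, with a median level of 177 to 201 RPKM (reads per kilobase of exon and 1000000 reads on genes). All 12 fibroblast markers also had reads in each library, and their summed level was 214 RPKM in control, 130 with KD-1 and 431 with KD-2. The cultures therefore held RNA of both kinds of cell, and in such bulk RNA fewer cells of a type and less RNA per cell cannot be told apart. Summed levels were 2.31 to 3.10 RPKM for the 8 leukocyte markers, 1.34 to 2.03 for the 7 primitive endoderm markers and 9.26 to 12.4 for the 6 endothelial markers. Of the leukocyte markers, Cd68 had the most reads, with 178, 255 and 241 in control, KD-1 and KD-2, followed by Itgam with 63, 82 and 44 and Csf1r with 26, 28 and 35. Lyz2 had 10, 2 and 10 reads, with KD-1 the lowest library as for Oasl2. Ptprc and Adgre1 had at most 12 reads in any library, and Aif1 and C1qa had at most 1.

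The OAS genes lie on chromosome 5 (GRCm38, GENCODE M21 gene limits), in separate places for the synthetases and the OAS-like genes. Oasl2 (114896936 to 114912234) and Oasl1 (114923240 to 114937915) are neighbours on the plus strand. Oas2 (120730333 to 120749853) and Oas3 (120753098 to 120777661) lie on the minus strand at the edge of a cluster. Oas1b (120812635 to 120824163, plus strand) follows in the cluster, and GENCODE classes it as a polymorphic pseudogene. Oas1g (120876142 to 120887613) and Oas1a (120896256 to 120907521) lie next to each other on the minus strand. Exons of Oasl1 overlap those of the antisense gene Gm13822, which is not among the counted genes, by 38 bases, and the other 6 OAS genes overlap no exon of another gene.

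RefSeq promoter sequences (GRCm38.p6) were at hand for 5 of the 7 genes, Oas1a, Oas1g, Oas3, Oasl1 and Oasl2. The 150 bases before each start are shown because the interferon-stimulated response element (ISRE), through which interferon signalling acts on such genes, separates them by its letters. Capitals mark every match to its core, GAAA and GAAA again with any 2 bases between them, which was searched on both strands. The stretches are chr5:120907526-120907675 (minus strand) for Oas1a, chr5:120887614-120887763 (minus) for Oas1g, chr5:120777660-120777809 (minus) for Oas3, chr5:114923090-114923239 (plus) for Oasl1 and chr5:114896784-114896933 (plus) for Oasl2, each written 5′ to 3′ in the sense of its gene.
Oas1a: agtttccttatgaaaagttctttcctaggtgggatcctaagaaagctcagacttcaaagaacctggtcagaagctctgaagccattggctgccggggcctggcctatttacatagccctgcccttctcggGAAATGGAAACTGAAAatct
Oas1g: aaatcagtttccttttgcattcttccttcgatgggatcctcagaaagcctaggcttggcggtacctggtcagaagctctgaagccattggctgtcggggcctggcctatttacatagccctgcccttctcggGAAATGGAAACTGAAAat
Oas3: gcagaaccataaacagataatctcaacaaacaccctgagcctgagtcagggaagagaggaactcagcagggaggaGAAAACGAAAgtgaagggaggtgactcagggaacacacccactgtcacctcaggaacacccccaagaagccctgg
Oasl1: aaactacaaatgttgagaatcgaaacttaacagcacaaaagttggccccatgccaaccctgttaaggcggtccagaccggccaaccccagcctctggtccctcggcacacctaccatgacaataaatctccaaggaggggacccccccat
Oasl2: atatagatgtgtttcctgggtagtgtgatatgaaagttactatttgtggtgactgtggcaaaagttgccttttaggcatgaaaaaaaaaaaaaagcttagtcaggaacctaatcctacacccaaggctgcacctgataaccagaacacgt

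Oas1a and Oas1g each carry a pair of overlapping matches, GAAATGGAAA and GAAACTGAAA, directly before the start. In Oas1a they span positions -20 to -11 and -14 to -5, counted from the start, and in Oas1g -18 to -9 and -12 to -3. Oas3 carries GAAAACGAAA at -75 to -66. Oasl1 and Oasl2 have no match in the whole window of 300 bases (250 before and 50 after the start), which says only that these letters are absent there. Among all 32851 promoter windows of that length, 3.44% hold a match. The gamma-activated site TTCNNNGAA, searched in the same way, matched in Oas1a alone of the 5 genes, as TTCAAAGAA at -98 to -90, and it is held by 8.30% of all windows.

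The synthetase genes Oas1a and Oas1g had the highest levels of the 7 genes in all 3 libraries, and neither passed the threshold for a call in any comparison. A gene was called when its fold exceeded 1.5 and its 95% counting interval left out equality. Oas1a encodes an active synthetase and had 1025 reads in control, 1603 with KD-1 and 1035 with KD-2. Its KD-1 library was thus the highest, and control and KD-2 lay close to each other. The log2 ratio to control was 0.42 in KD-1 (0.30 to 0.53) and -0.09 in KD-2 (-0.22 to 0.03), and the last value turned to 0.06 with scaling by total reads. Oas1g, the second active enzyme of the mouse Oas1 group, had 333 reads in control, 564 with KD-1 and 352 with KD-2. The order of the libraries was the same as for Oas1a. Its log2 ratio was 0.53 in KD-1 (0.33 to 0.73). In KD-2 it was -0.03 (-0.25 to 0.19), and this sign turned under each of the other scalings.

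Sequence identity limits how far Oas1a and Oas1g can be told apart. Of the 50-base windows of Oas1a transcripts, 57.6% also occur in another gene, all of them in Oas1g, and 45.7% of the Oas1g windows occur in another gene, nearly all in Oas1a. The reads were of that length and were filtered on mapping quality, so that reads from these stretches may be missing from the counts or split. For both genes summed, the log2 ratio was 0.45 in KD-1 (0.35 to 0.54) and -0.08 in KD-2 (-0.19 to 0.03). The ratio of Oas1a to Oas1g reads was 3.08 (2.72 to 3.49) in control, 2.84 (2.58 to 3.13) with KD-1 and 2.94 (2.60 to 3.33) with KD-2, and these intervals overlap. For the remaining OAS genes described, at most 2.98% of windows were shared, in Oas1b.

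The larger synthetases, Oas3 and Oas2, differed from each other. Oas3, which binds long double-stranded RNA through repeated OAS units, had 205 reads in control, 294 with KD-1 and 231 with KD-2. It was not called in any comparison, with log2 ratios to control of 0.29 in KD-1 (0.03 to 0.56) and 0.07 in KD-2 (-0.21 to 0.34). Oas2, the other synthetase built of repeated units, had 47 reads in control, 32 with KD-1 and 28 with KD-2. Both knockdown libraries were lower than control although KD-1 was sequenced more deeply. Oas2 was called lower in both, with a log2 ratio to control of -0.78 in KD-1 (-1.48 to -0.10) and -0.85 in KD-2 (-1.58 to -0.15). Both calls rest on few reads and were lost at dispersions of 0.01 and 0.04, and the call in KD-2 was also lost with scaling by total reads. The direct ratio of KD-1 over KD-2 was 0.07 on the log2 scale, with an interval of -0.71 to 0.86.

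Oas1b, known as the flavivirus resistance gene of mice, had 46 reads in control, 29 with KD-1 and 53 with KD-2. KD-1 was the lowest library. Oas1b was called lower in KD-1, by 1.86-fold (1.14 to 3.07), and was at a log2 ratio of 0.10 in KD-2 (-0.50 to 0.70). The call in KD-1 was kept in 4 of 8 alternatives and lost with a fold above 2, the whole interval past 1.5-fold and both dispersions. In the direct comparison KD-1 was lower than KD-2, with a log2 ratio of -0.99 (-1.70 to -0.31).

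Oasl2 showed the widest difference of the OAS genes described. It encodes an OAS protein with ubiquitin-like domains and had 118 reads in control, 25 with KD-1 and 144 with KD-2. The KD-1 library stood far below the other libraries, which differed little. Oasl2 was 5.53-fold lower in KD-1 than in control (3.57 to 8.89), a log2 ratio of -2.47 (-3.15 to -1.84). In KD-2 its log2 ratio to control was 0.18 (-0.18 to 0.54), within counting error of no difference. Compared directly, Oasl2 was 6.27-fold lower in KD-1 than KD-2, a log2 ratio of -2.65 (-3.32 to -2.03). It was the one OAS gene described that was called in KD-1 under all 8 alternatives, with log2 ratios between -2.53 and -2.45.

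Its neighbour Oasl1, an OAS-like protein without synthetase activity that is known to restrain Irf7 translation, had 27 reads in control, 12 with KD-1 and 19 with KD-2. It was called lower in KD-1, by 2.64-fold, with a wide interval of 1.29 to 5.71. This call was kept in 5 of 8 alternatives and lost with the whole interval past 1.5-fold and at both dispersions. In KD-2 its log2 ratio to control was -0.61 (-1.54 to 0.29), and that of KD-1 over KD-2 was -0.78 (-1.96 to 0.33). The reads of Oasl1 do not tell whether the knockdown libraries differed.

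**Figure D1:**
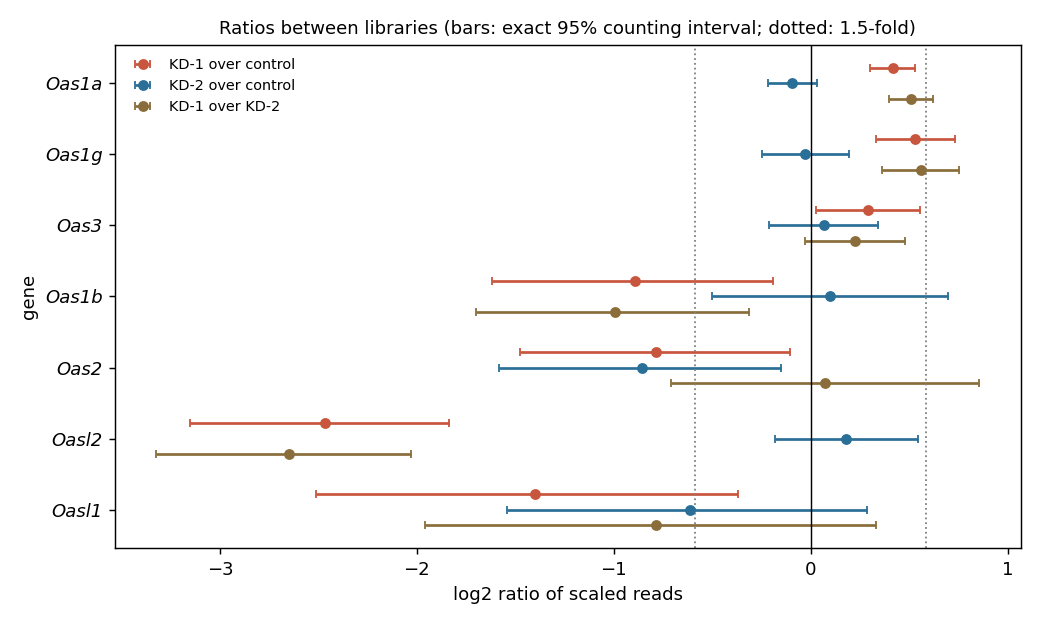
Log2 ratio of upper-quartile scaled reads (x axis) for each gene (y axis) in the 3 comparisons, with 1 library on each side; bars are exact 95% counting intervals and dotted lines mark 1.5-fold. Oasl2 is the one gene whose whole interval lies past 1.5-fold, in KD-1 over control (-2.47) and in KD-1 over KD-2 (-2.65), whereas Oas1a, Oas1g and Oas3 lie above 0 in KD-1 over control.

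Counted together, 4 of the 7 genes were called lower in KD-1 than in control and 0 were called higher. Among the 16670 genes whose mean was 10 reads or more, to which all 7 belong, 4.59% were called lower and 6.52% higher in this comparison. The 4 genes called had the fewest reads of the 7, with means of 19.3 to 95.7, whereas the shares cover genes of all depths above the minimum. The 7 genes were chosen with earlier results of these data known. Of the other Oas1 genes with enough reads, 0 were called lower and 2 higher in KD-1. The median log2 ratio of the 7 genes was -0.78, compared to 0.02 for all genes tested. In KD-2, 1 of the 7 genes was called lower and 0 higher, where 8.6% of genes were called lower and 14.9% higher, and the medians were -0.03 and -0.02. In KD-1 over KD-2, 2 genes were called lower and 0 higher, where 15.1% of genes were called lower and 12.1% higher, and the medians were 0.07 and 0.12. The KD-1 and KD-2 ratios share the control library. The split of calls over all genes depended on scaling, with 1087 higher and 765 lower in KD-1 but 861 and 940 with the size factors of DESeq2. In KD-2 it was 2482 higher and 1433 lower but 3552 and 633 with total reads, and in KD-1 over KD-2 it was 2012 and 2512 but 981 and 3302 with total reads.

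Stricter rules left fewer calls. Against control, KD-1 had 2 of the 7 genes lower by more than 2-fold, Oasl1 and Oasl2, where 1.4% of genes were. It had 1, Oasl2, with the whole interval past 1.5-fold (2.01% of genes) and in the likelihood ratio test at a dispersion of 0.01 (2.47%) or 0.04 (0.138%), which stands in for a spread between libraries. By these 4 rules KD-2 had 0 of the 7 genes lower, where 1.64%, 4.04%, 6.89% and 0.036% of genes were. In KD-1 over KD-2, Oasl2 was lower by all 4 rules, where 7.82%, 10.3%, 13.7% and 3.38% of genes were, and Oas1b by the test at 0.01 alone.

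The makeup of the OAS reads in KD-1 differed from that in control and KD-2. Oas1a and Oas1g made up 56.9% and 18.5% of the reads of the 7 genes in control, 62.6% and 22.0% in KD-1, and 55.6% and 18.9% in KD-2. Oasl2 made up 6.55% in control, 0.977% with KD-1 and 7.73% with KD-2. The ratio of Oasl2 to Oas1a reads does not depend on library scaling, and it was 0.115 (0.0943 to 0.139) in control, 0.0156 (0.0101 to 0.0231) with KD-1 and 0.139 (0.116 to 0.166) with KD-2. The KD-1 interval lies below both others, which overlap.

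Per length, Oas1a was at 7.52 RPKM in control (exact Poisson 95% interval 7.06 to 7.99), above 79.1% of the 23376 genes with an exon length. Oas1g followed at 1.97 RPKM (1.76 to 2.19) and Oas3 at 0.401 (0.348 to 0.460). Below these stood Oas1b at 0.319 RPKM (0.234 to 0.426), Oasl2 at 0.256 (0.212 to 0.306), Oas2 at 0.146 (0.107 to 0.194) and Oasl1 at 0.143 (0.0943 to 0.208). In this order the intervals of Oas3 and Oas1b, of Oas1b and Oasl2, and of Oas2 and Oasl1 overlap, so that these neighbours cannot be ranked by counting error alone. In KD-1 Oasl2 dropped to the last place of the 7, at 0.0460 RPKM (0.0298 to 0.0679), beside Oasl1 at 0.0540 (0.0279 to 0.0943). In KD-2 it stood at 0.323 RPKM (0.273 to 0.381), between Oas1b at 0.381 and Oasl1 at 0.104. The levels of Oas1a and Oas1g carry the limit of their shared windows.

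**Figure D2:**
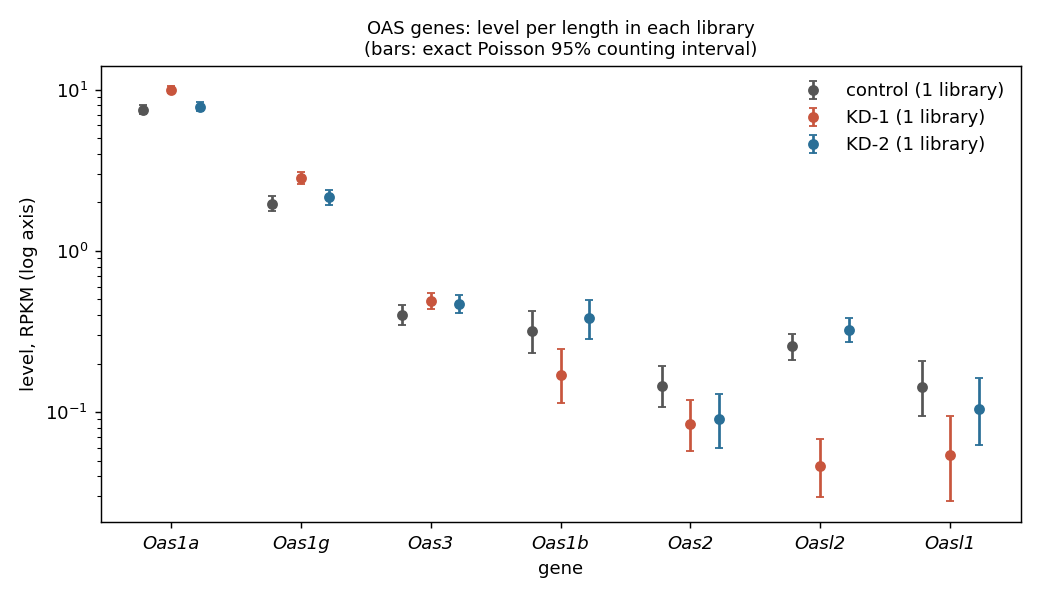
Level of each gene (x axis) in RPKM on a log axis (y axis) in the control, KD-1 and KD-2 libraries, 1 library each; bars are exact Poisson 95% counting intervals. Oas1a lies between 7.52 and 9.97 RPKM in all 3 libraries, and the Oasl2 point of KD-1 at 0.0460 RPKM lies apart from those of control and KD-2 at 0.256 and 0.323.

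Of 3 genes around the turnover and action of oligoadenylates, 1 was called, in KD-2, where 8.6% of genes were called lower. Abce1, a ribosome recycling factor, was called lower in KD-2, at -0.62, and not in KD-1, at -0.08. Its call in KD-2 was lost under every other scaling. Pde12 and Akap7, which degrade oligoadenylates, were not called in any comparison, with log2 ratios to control between -0.11 and 0.19, of which those of Pde12 turned sign under other scalings.

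Of the other Oas1 genes, 0 were called lower in KD-1, where 4.59% of genes were. Oas1d, known from oocytes, had 222 reads in control, 408 with KD-1 and 220 with KD-2 and was called higher in KD-1, at 0.65 (0.41 to 0.89), a call kept in 3 of 8 alternatives. It was lost with the size factors of DESeq2, at 0.58, and with a fold above 2, the whole interval past 1.5-fold and both dispersions. Oas1f had 3 reads in control, 22 with KD-1 and 6 with KD-2, and its log2 ratio in KD-1 was 2.65 with an interval of 0.91 to 5.03, a call lost at a dispersion of 0.04. Oas1c had 487 reads in control, 563 with KD-1 and 345 with KD-2. Its level in control was 2.80 RPKM (2.56 to 3.06), above the 1.97 RPKM of Oas1g, and the ratio of Oas1g to Oas1c reads was 0.684 (0.593 to 0.788) there. That ratio was 1.00 (0.890 to 1.13) with KD-1 and 1.02 (0.877 to 1.19) with KD-2, so that the genes could not be ranked in these libraries. Oas1c was at a log2 ratio of -0.02 in KD-1 and was called lower in KD-2, at -0.60, a call that was lost under every other scaling. Oas1e was not called against control in either knockdown library, with 27, 36 and 18 reads. Of these 5 genes, Oas1h had a mean under 10 reads, with 2 in control, 14 with KD-1 and 4 with KD-2. Among the other 4, 2 were called higher in KD-1, Oas1d and Oas1f, where 6.52% of genes were.

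Upstream of the OAS genes, 2 interferon genes were listed. Ifnb1 had 0 reads in control and KD-1 and 1 in KD-2, and Ifna4 had 0 reads in all 3 libraries, where a count of 0 allows up to 3 reads. Of the 9 interferon signalling genes listed with enough reads, 3 were called lower in KD-1 and 0 in KD-2. These were Stat2 (-1.04) and Irf9 (-0.72), which are part of the factor that binds the ISRE, and Irf7 (-1.39), which drives interferon transcription. Irf9 was 1.65-fold lower, so that its call was lost with a fold above 2. The receptor genes Ifnar1 and Ifnar2 were at 0.10 and -0.06 in KD-1. All of these 9 genes had log2 ratios above 0 in KD-2, with a median of 0.39, and 0 were called there. With the other scalings 2 or 3 of them were called in KD-2.

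The list of sensors of double-stranded RNA and their partners holds 8 genes and includes the adaptor Mavs and the editing enzyme Adar. Of these, 3 were called lower in KD-1, where 4.59% of genes were, namely Ifih1 (-1.44), Dhx58 (-1.14) and Tlr3 (-0.63). In KD-2, 0 of the 8 were called, where 8.6% of genes were called lower and 14.9% higher. The call of Tlr3 was lost with a fold above 2, the whole interval past 1.5-fold and both dispersions. Eif2ak2, the kinase that works beside the OAS system, was at -0.32 with KD-1 and -0.06 with KD-2, where total reads gave 0.10. Zbp1 was at -0.54 with KD-1 and -0.58 with KD-2, and Ddx58, which encodes the sensor RIG-I, had 4296, 3439 and 4174 reads and a log2 ratio in KD-1 of -0.55 (-0.61 to -0.48). Neither was called, although with the size factors of DESeq2 both were called lower in KD-1, which makes 5 of the 8 genes. At a dispersion of 0.04, 0 of the 8 were called.

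Outside of the OAS family, most interferon-stimulated genes listed were lower in KD-1. In KD-1, 16 of 20 were called lower and 0 higher, where 4.59% and 6.52% of genes were, with a median log2 ratio of -1.27. In KD-2 Herc6 was called lower (-1.35) and Ifi27 higher (0.79), where 8.6% and 14.9% of genes were, with a median of 0.01. Usp18, which switches off interferon signalling, had 333 reads in control, 22 with KD-1 and 297 with KD-2, a log2 ratio in KD-1 of -4.15 (-4.84 to -3.53). Isg15, a ubiquitin-like modifier, had 701, 94 and 960 reads and a log2 ratio in KD-1 of -3.13 (-3.45 to -2.81). The genes of this list that were not called in KD-1 were Xaf1, Bst2, Ifitm3 and Trim25, at log2 ratios between -0.36 and 0.10. Ifih1 stands on this list as well as among the sensors. At a dispersion of 0.04 the number called lower in KD-1 was 7, where 0.138% of genes were.

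The genes with a pattern most like a given OAS gene were sought among 13980 other genes whose mean was 50 reads or more, by the distance between the pairs of log2 ratios to control. For Oas1a, which has the most reads of the 7, the nearest were D630045J12Rik, Trim43b, Celsr2, Rmi2 and Nr6a1, at distances of 0.00306 to 0.00855. This pattern was common, with 701 genes within a distance of 0.2. The same search for Oasl2 was added after its values were seen, and 2 genes lay within 0.2 of it. The nearest 5 were Gbp7 (142 reads in control, 29 with KD-1 and 165 with KD-2), Mx2 (106, 21 and 136), Ifit3b (428, 74 and 569), Rtp4 (291, 52 and 307) and Gbp3 (221, 37 and 290), at distances of 0.0884 to 0.355. All 5 are known as interferon-stimulated genes, and Mx2 and Rtp4 are also on the list above. The counting intervals in KD-1, 0.30 to 0.53 for Oas1a and -3.15 to -1.84 for Oasl2, are wider than the distances of their nearest 5 genes. The order of the nearest genes therefore lies within counting error.

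**Figure D3:**
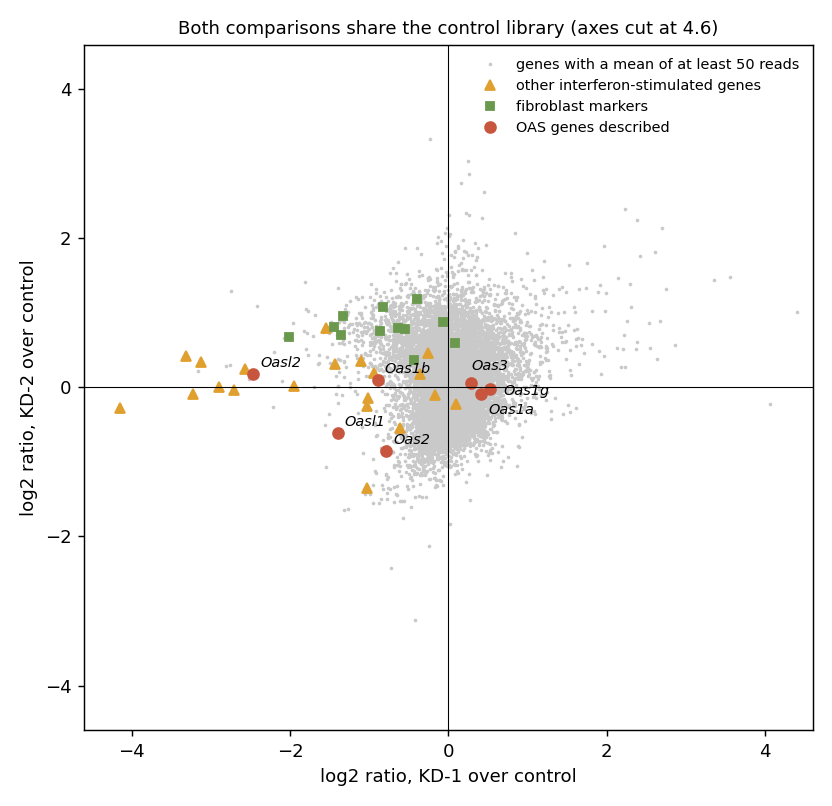
Log2 ratio of KD-2 over control (y axis) against KD-1 over control (x axis), 1 point per gene, with genes whose mean was 50 reads or more in grey and the OAS genes, other interferon-stimulated genes and fibroblast markers in colour. Oasl2 lies among the interferon-stimulated genes at -2.47 with KD-1 and 0.18 with KD-2, Oas1a and Oas1g lie within the grey cloud, and the fibroblast markers lie higher on the y axis.

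Most fibroblast markers were lower in KD-1, as were the 4 OAS genes called lower there, and the markers moved apart from these genes in KD-2. The direction shared in KD-1 follows from picking the 4 genes by their calls. Oas1a, Oas1g and Oas3 were at log2 ratios of 0.42, 0.53 and 0.29 in KD-1. In KD-1, 7 of the 12 markers were called lower and 0 higher, where 4.59% and 6.52% of genes were. Their median log2 ratio was -0.73, and those called included Col3a1 (-1.33) and Postn (-2.01), the lowest of the 12. Col1a1 (-0.55), Thy1 (-0.44), Twist1 (-0.40), Fbln2 (-0.07) and Col6a3 (0.08) were not called. In KD-2, 11 of 12 were called higher, where 14.9% of genes were, with a median of 0.80. There Oasl2 was at 0.18, Oas1b at 0.10, Oasl1 at -0.61 and Oas2 at -0.85. Per 100000 reads on the fibroblast markers, Oasl2 had 96.9 reads in control, 28.5 with KD-1 and 61.0 with KD-2, with KD-1 the lowest library. This scale follows the markers with the most reads, in KD-1 Col6a3, Col3a1 and Fbln2 (25574, 25523 and 22190 of 87667). Postn, the marker that fell most in KD-1, had 6547, 1902 and 11277 reads in control, KD-1 and KD-2. Scales on single markers were not computed. On the scale of all 12 fibroblast markers, Oas1b had 37.8, 33.1 and 22.5 reads and Oas2 had 38.6, 36.5 and 11.9. Oasl1 had 22.2, 13.7 and 8.05 on it. Oas1b, Oas2 and Oasl1 were thus highest in control and lowest in KD-2, whereas Oasl2 was lowest in KD-1. No interval was computed for these orders, which rest on 12 to 53 reads for Oas1b, Oas2 and Oasl1. On this scale Oas1a (842, 1829 and 439), Oas1g (273, 643 and 149) and Oas3 (168, 335 and 97.9) were highest in KD-1. Per 100000 reads on the ES cell markers, all 4 genes were lowest in KD-1. The values were 34.5, 5.67 and 52.6 reads for Oasl2, 13.4, 6.57 and 19.4 for Oas1b, 13.7, 7.25 and 10.2 for Oas2, and 7.89, 2.72 and 6.94 for Oasl1. These orders carry no interval either, and KD-1 and KD-2 had 32 and 28 reads of Oas2 and 12 and 19 of Oasl1. Of the 4, Oasl2 was the gene that was lowest in KD-1 on both scales. The ES cell markers had medians of 0.18 with KD-1 and -0.25 with KD-2. The part of the fibroblasts in the OAS values was not tested.

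When KD-1 and KD-2 were grouped and compared to control, the quasi-likelihood test of edgeR called 0 of the 7 OAS genes, each with an adjusted p of 1.00. The lowest unadjusted p was 0.194, for Oasl1, and 0 of the 7 were under 0.05. DESeq2's Wald test also called 0, with a lowest unadjusted p of 0.396. Of all 21164 genes with a read, the quasi-likelihood test called 2 (0.00945%), Lars2 and Mir6236, which are named after their values were seen, and 264 had an unadjusted p under 0.05. With 1 residual degree of freedom, its estimate of spread rests on KD-1 and KD-2, which for Oasl2 lie on either side of control.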

How the data were processed

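Per the study's methods and the submitters' processing notes, rRNA-depleted total RNA was sequenced as 50 bp single-end reads, trimmed with Trim Galore 0.4.1 and mapped with TopHat2 2.1.1 to mm10 (GRCm38). The deposited values are the authors' unnormalized counts of reads for 24421 gene symbols. HTSeq is named in the notes, whereas the paper names featureCounts, and the strand setting is not given in the sources used here. Reads on no gene or on several genes made up 23.0% to 25.6% of each library and were left out. The line's strain background differs from the C57BL/6J reference, and the effect on mapping was not measured.

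Ratios were computed from counts after upper-quartile scaling (edgeR 4.0.16, R 4.3.3), with exact conditional 95% counting intervals (scipy 1.17.1). These intervals, like the Poisson intervals of RPKM, cover counting error only, since PCR copies were not separable. Genes were called at a fold above 1.5 with an interval that left out equality, among 16670 genes whose mean was 10 reads or more. The study's spike-in dispersion was not used. Exon lengths came from GENCODE M21, which matched 23376 genes by symbol. Both knockdowns together were tested with edgeR's quasi-likelihood test and, as an alternative, DESeq2 1.42.0, each with Benjamini-Hochberg adjustment. Named genes were the 7 members, Nup153, the genes of fixed pathway and marker lists, and the 5 genes nearest to the member with the most reads. The members and lists were chosen with earlier results of these data known. Some genes of these lists are not reported here. The search for genes like Oasl2 and the values per marker reads were added after seeing the data.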

Additional observations from a re-analysis of the deposited data

Results flagged for a closer look

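For 2 genes the log2 ratios to control of KD-1 and KD-2 had opposite signs and the difference between KD-1 and KD-2 was called. The KD-2 ratios of both, 0.18 (-0.18 to 0.54) for Oasl2 and 0.10 (-0.50 to 0.70) for Oas1b, were within counting error of 0. The log2 ratio of KD-1 over KD-2 was -2.65 for Oasl2 and -0.99 for Oas1b. Each difference compares 1 library with 1 library, so that it was not tested against a spread between replicates. For Oas1b it was no longer called with a fold above 2, with the whole interval past 1.5-fold or at a dispersion of 0.04.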

How the results depend on the processing

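The alternatives were TMM scaling, DESeq2's size factors, total reads, an upper quartile over genes averaging 10 reads or more, a fold above 2, a whole interval past 1.5-fold, and edgeR's likelihood ratio test at dispersions of 0.01 and 0.04. Of the 7 genes, the 4 called lower with KD-1 became 2 with a fold above 2 and 1 with the whole interval past 1.5-fold and at both dispersions. The 1 gene called lower in KD-2 became 0 with total reads, a fold above 2, the whole interval and both dispersions. The 2 genes lower in KD-1 over KD-2 became 1 with a fold above 2, the whole interval and a dispersion of 0.04. With both knockdowns together, 4 genes were called after TMM scaling and 4 for genes averaging 10 reads or more, in place of 2.

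Signs turned for small values. In KD-2 over control, Oas1a was at 0.065 with total reads, and Oas1g at 0.014 with TMM, 0.010 with DESeq2's size factors, 0.13 with total reads and 0.035 with the upper quartile over genes of at least 10 reads. Oas2 in KD-1 over KD-2 was at -0.032 with DESeq2's size factors and -0.095 with total reads. Pde12 was at -0.032 in KD-1 with DESeq2's size factors, and with total reads in KD-2 Pde12 was at 0.049, Oas1d at 0.038, Ddx58 at 0.0093 and Eif2ak2 at 0.096. The median of Abce1, Pde12 and Akap7 was that of Pde12 in these cases, and -0.024 in KD-1 over KD-2 with total reads. For both knockdowns together, leaving out 1 knockdown library (no test) gave -0.093 to 0.42 for Oas1a, -0.89 to 0.097 for Oas1b, -0.027 to 0.53 for Oas1g and -2.47 to 0.18 for Oasl2. Total reads moved the median of all genes in KD-2 to 0.14, and upper-quartile scaling that of KD-1 over KD-2 to 0.12. The cause of these shifts was not tested. No paired analysis was possible because each condition has 1 library.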
